A study of Mus musculus with 6 samples.

Results

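Hsp90ab1 and Ppia are the protein folding genes among the reference genes of the array, and their RNA was followed here in the hippocampus of 20-day old mice whose mothers had drunk nicotine. The members were the non-control reference probes whose accession in the files belongs to either gene, which gave 1 probe for Hsp90ab1 (CUST_6_PI419532418, designed for NM_008302.3) and 1 for Ppia (CUST_10_PI419532418, designed for NM_008907.1), each printed in 20 spots per array. They are 2 of the 15 reference probes and 2 of 60915 probes in all. Total RNA from the hippocampus of C57BL/6 offspring was taken at postnatal day 20, and each sample was measured with a single dye, Cy3, on its own Agilent array of Arraystar's design. The 3 vehicle samples came from offspring of dams that drank 1% saccharin, and the 3 nicotine samples from offspring of dams given 200 μg/ml nicotine, which the study's methods describe as dissolved in 1% saccharin, from before mating until weaning. The methods used offspring of either sex, and the labels do not give the sex, the litter or whether animals were pooled for a sample, so p-values measure only the spread between these samples.

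Hsp90ab1 encodes HSP90β, the constitutive cytosolic form of the heat shock protein 90 chaperone. This ATP-driven dimer works with co-chaperones to bring kinases, steroid receptors and other client proteins to their active shape, and it is abundant in neurons. Ppia encodes cyclophilin A, a peptidyl-prolyl cis-trans isomerase that turns proline bonds during folding. Cyclophilin A is the cellular receptor of cyclosporin A, and the complex of drug and protein inhibits the phosphatase calcineurin. Both transcripts are often used as reference genes for quantitative PCR, on the assumption that their level is steady between samples.

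Both genes were among the brighter probes on every array, and neither differed between nicotine and vehicle offspring beyond the spread between replicates. Hsp90ab1 was 1.18-fold higher in nicotine offspring by its mean and Ppia was at 0.888 of its vehicle level. For both genes the vehicle and nicotine arrays overlapped. The values that stood out were those of single arrays. Scaled to the 75th percentile of each array, Hsp90ab1 was lowest and Ppia highest in vehicle replicate 2. On the same scale Hsp90ab1 was highest in nicotine replicate 1. Vehicle replicate 2 stood out beyond this pair. Its scaled log2 signal minus the probe's mean over the arrays was 1.30 for Actb and -0.62 for Tfrc, and smaller in size for the other reference probes tested.

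The arrays lay on 2 slides, and the slides differed in brightness. Slide 1 held vehicle replicates 1 and 2 and nicotine replicates 2 and 3, and slide 2 held vehicle replicate 3 and nicotine replicate 1. On each slide the vehicle arrays had lower position numbers than the nicotine arrays, so group and position cannot be told apart within a slide. The 75th percentile of the signal was 291 to 345 on slide 1 and 148 and 150.0 on slide 2, and no spot was saturated. The values below are log2 signals minus the log2 of this percentile of the same array, called the relative log2 signal, so 0 is the level of the 75th percentile. The lists of 29 further protein folding genes and 27 cell type markers could not be used to describe the folding machinery or to check the tissue, since 0 of either list were named by the files.

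The Hsp90ab1 probe had relative log2 signals of 6.74, 6.52 and 7.10 in vehicle replicates 1, 2 and 3. Nicotine replicates 1, 2 and 3 gave 7.35, 7.01 and 6.73 in turn. The highest value of each group was the array on slide 2, and nicotine replicate 3 lay just under vehicle replicate 1. As signals before scaling between arrays, the means over spots were 36733, 26707 and 20186 for vehicle and 24458, 44448 and 35741 for nicotine offspring, in replicate order. These signals were bright but far from the limit of the scanner, with at most 5.71% of the saturation value. The median ratio of the spots to their local background was between 891 and 2474, and all 20 spots were well above background on each array.

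Ppia had relative log2 signals of 8.45, 9.00 and 8.69 in vehicle replicates 1, 2 and 3, and of 8.66, 8.48 and 8.50 in nicotine replicates 1, 2 and 3. The 3 nicotine arrays all lay between the lowest and the highest vehicle array. The mean spot signals were 120089, 149794 and 61093 for vehicle and 60740, 123123 and 122215 for nicotine offspring, at most 19.2% of the saturation value. All 20 spots of Ppia were well above background on each array, with a median ratio to local background between 2697 and 7934.

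**Figure D1:**
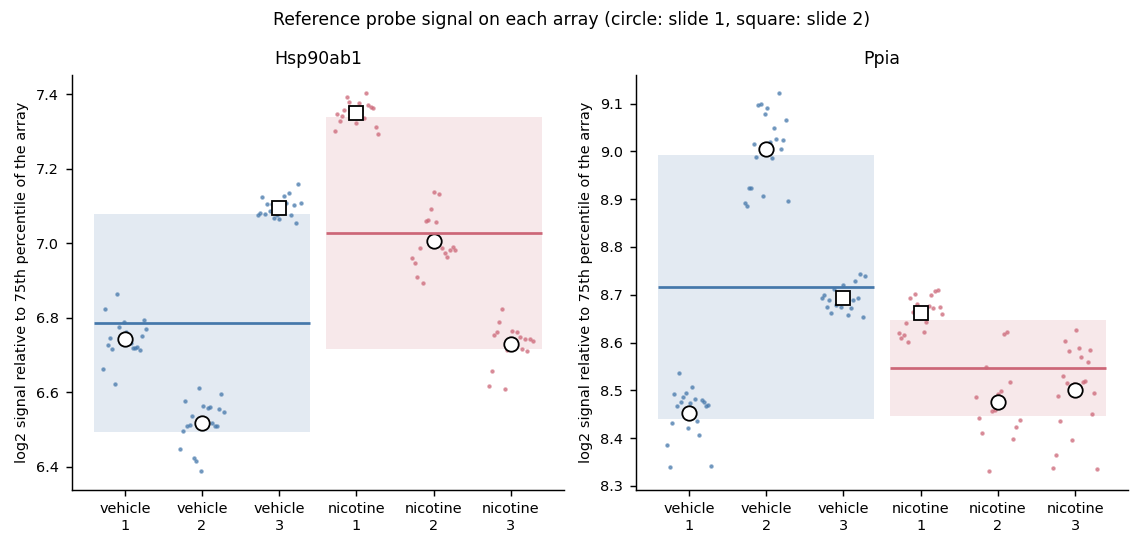
The relative log2 signal (log2 signal minus that of the 75th percentile of the array) of the Hsp90ab1 and Ppia probes on the 6 arrays, with each gene on its own y axis. Small dots are the spots used, open symbols the mean of an array (circles for slide 1, squares for slide 2), lines the group means and bands 1 SD between arrays (n = 3). Vehicle replicate 2 had the lowest Hsp90ab1 signal (6.52) and the highest Ppia signal (9.00).

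Ranked by signal among all probes with a value on the array, Ppia held rank 118, 69 and 97 in vehicle replicates 1, 2 and 3 and rank 92, 113 and 126 in nicotine replicates 1, 2 and 3. Between 0.112% and 0.205% of probes were brighter. Hsp90ab1 held rank 727, 1024 and 573 for vehicle and 434, 565 and 735 for nicotine offspring, with 0.711% to 1.68% of probes brighter. Among the 15 reference probes, ordered by mean brightness, Ppia came next after Gapdh, the brightest, and Hsp90ab1 next after Tuba1b. A rank describes the brightness of a probe and not the number of transcripts, since probes differ in how strongly they bind.

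Hsp90ab1 averaged 6.79 ± 0.29 (SD, n = 3) with vehicle and 7.03 ± 0.31 (SD, n = 3) with nicotine on the relative log2 scale. The difference, nicotine minus vehicle, was 0.24 with a 95% confidence interval of -0.38 to 0.86 from limma, which is 1.18-fold with an interval of 0.770 to 1.82. The nicotine array was higher in 6 of the 9 pairs of 1 nicotine and 1 vehicle array. This difference was within the spread between replicates (limma p = 0.389, Benjamini-Hochberg adjusted p = 0.9999 over 30233 probes, exact two-sided permutation test p = 0.5). The smallest p that this permutation test can give with 3 arrays against 3 is 0.1. The interval includes a 1.5-fold rise, so a rise of that size is not excluded.

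Ppia averaged 8.72 ± 0.28 (SD, n = 3) with vehicle and 8.55 ± 0.10 (SD, n = 3) with nicotine. The difference, nicotine minus vehicle, was -0.17 (95% confidence interval -0.71 to 0.37 from limma), a ratio of 0.888 with an interval of 0.612 to 1.29. The nicotine array was higher in 3 of the 9 pairs. This difference was also within the spread between replicates (limma p = 0.481, adjusted p = 0.9999, exact two-sided permutation test p = 0.5). The interval does not reach a 1.5-fold rise of the Ppia signal, but on the log2 scale its upper end was 0.61 with the replicate block and 0.59 without nicotine replicate 2, both past that size, and higher still without normalization between arrays. The lower end does not exclude a fall of that factor.

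Of all 30233 probes tested, 0.0265% had an adjusted p under 0.05 in limma, and neither Hsp90ab1 nor Ppia was among them. The study's thresholds, p under 0.05 and a fold change of 1.5, were passed by 3.04% of probes and by neither gene. The 3 nicotine arrays did not overlap with the 3 vehicle arrays at 8.42% of probes, while they overlapped for both genes. A larger difference in size than that of Hsp90ab1 was seen at 41.0% of the probes tested, and a larger one than that of Ppia at 55.8%, so both lay in the bulk of all probes. In bulk tissue, fewer cells of a type and less RNA per cell cannot be told apart in such a value.

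The difference in Hsp90ab1 had the same direction on both slides and, by the means, nearly the same size. Within slide 1 it was 0.24 on the log2 scale (2 arrays per group) and within slide 2 it was 0.25 (1 array per group, no test), nicotine minus vehicle in both. In the 5 single pairs of 1 nicotine and 1 vehicle array on the same slide, its size ran from 0.02 to 0.49. With slide as a block in limma the difference of 0.24 had an interval of -0.13 to 0.62 (adjusted p = 0.583), and 0.0628% of all probes had an adjusted p under 0.05 in this fit. Its size rested on single arrays: it was 0.08 without nicotine replicate 1, the array with the highest relative log2 signal of Hsp90ab1, and 0.11 without vehicle replicate 2. It was 0.40 without vehicle replicate 3 and 0.39 without nicotine replicate 3.

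For Ppia the slides gave unequal differences. The value was -0.24 within slide 1 and -0.03 within slide 2, nicotine minus vehicle. With slide as a block the difference of -0.17 had an interval of -0.62 to 0.28 (adjusted p = 0.722 from limma). Vehicle replicate 2 carried most of it, since without this array the difference was -0.03 (limma interval -0.52 to 0.46), and without vehicle replicate 1 it was -0.30. After quantile normalization the difference of Ppia was -0.10, on the authors' processed values -0.09, without normalization between arrays -0.09 and with array weights -0.06. All of these keep the direction, and the interval of each includes 0.

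**Figure D2:**
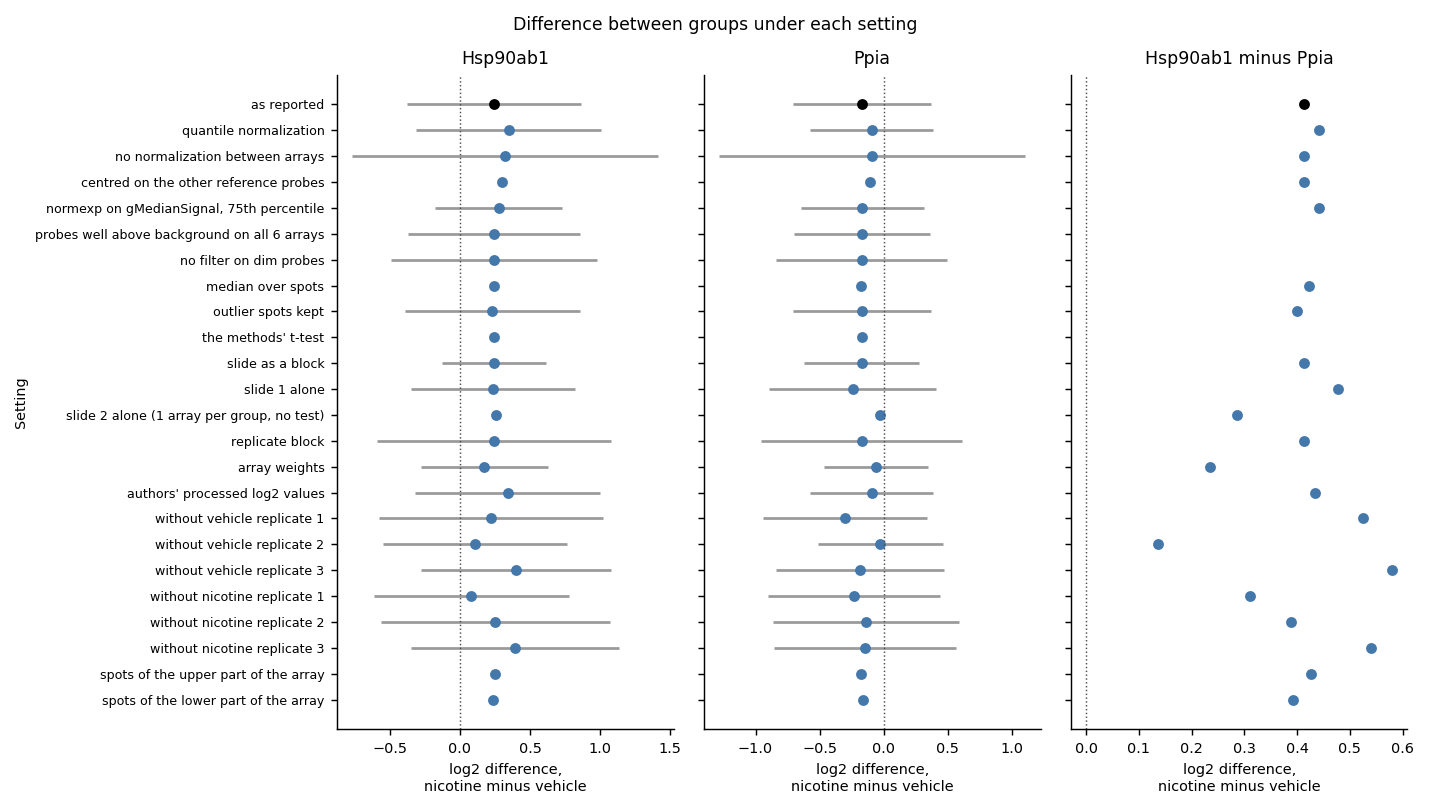
The log2 difference, nicotine minus vehicle (x axis), of Hsp90ab1, Ppia and the difference between them under each setting (y axis), with the 95% confidence interval of limma as a grey line where the fit gave one and the reported value in black. Hsp90ab1 stayed above 0 (0.08 to 0.40) and Ppia below 0 (-0.30 to -0.03) in the settings shown, and every interval drawn crosses 0.

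The difference between slides was larger for Hsp90ab1 than for Ppia by the point estimates. With group in the model, Hsp90ab1 was 0.47 higher on slide 2 than on slide 1 on the relative log2 scale (95% confidence interval 0.08 to 0.87, adjusted p = 0.0752 from limma). An interval that excluded 0 was found for 43.5% of all probes in this comparison, and an adjusted p under 0.05 for 27.3%. Ppia was 0.07 higher on slide 2 (interval -0.41 to 0.55, adjusted p = 0.806 from limma). Whether the slide effect differed between the genes was not tested. Since slide 2 held 1 array of each group, an effect of the slide cannot be told apart from the animals on it.

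The signal of Hsp90ab1 relative to that of Ppia on the same array is not changed by a constant added to all log2 values of an array, and its difference between groups shows whether the probes moved unequally. This log2 difference, Hsp90ab1 minus Ppia, was -1.71, -2.49 and -1.60 in vehicle replicates 1, 2 and 3 and -1.31, -1.47 and -1.77 in nicotine replicates 1, 2 and 3. Vehicle replicate 2 stood below the rest, and nicotine replicate 3 lay within the range of the vehicle arrays. The mean was -1.93 ± 0.48 (SD, n = 3) in vehicle and -1.52 ± 0.23 (SD, n = 3) in nicotine offspring, a shift of 0.41 that was within the spread between replicates (exact two-sided permutation test, p = 0.3). The shift was 0.44 after quantile normalization and 0.43 on the authors' processed values (exact two-sided permutation test, p = 0.2 in both). Within slide 1 the shift was 0.48 and within slide 2 it was 0.29. Without vehicle replicate 2 it was 0.14, the lowest of all settings run.

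The spots showed that the probes themselves were measured precisely on each array. Of 120 spots per gene over the 6 arrays, 113 of Hsp90ab1 and 114 of Ppia were used, and the rest carried an outlier flag, among them 5 of the 20 Ppia spots on nicotine replicate 2. The coefficient of variation over the spots of an array was 1.88% to 4.99% for Hsp90ab1 and 1.80% to 6.01% for Ppia, lowest on the arrays of slide 2 for both genes. The brightest spot used was at most 1.18 times the dimmest on the same array for Hsp90ab1 and 1.22 times for Ppia. Spots in the upper part of the array differed from those in the lower part by no more than 0.05 in mean log2 signal for either gene. The difference between groups was 0.25 from the upper spots and 0.23 from the lower spots for Hsp90ab1, and -0.18 and -0.16 for Ppia.

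Most of the distance between arrays was larger than this error over spots. The standard error of an array's mean over its spots was 0.006 to 0.017 on the log2 scale for Hsp90ab1 and 0.006 to 0.020 for Ppia, against a spread between arrays of the same group of 0.30 and 0.21. From low to high, the order of arrays for Hsp90ab1 was vehicle replicate 2, nicotine replicate 3, vehicle replicate 1, nicotine replicate 2, vehicle replicate 3 and nicotine replicate 1. In this order the neighbours nicotine replicate 3 and vehicle replicate 1 were 0.02 apart, 0.913 of the standard error of their difference over spots, and the other neighbours were 4.84 to 27.7 standard errors apart. For Ppia the order was vehicle replicate 1, nicotine replicate 2, nicotine replicate 3, nicotine replicate 1, vehicle replicate 3 and vehicle replicate 2. The first 3 of these lay close together, with gaps of 0.977 and 0.863 standard errors, and vehicle replicate 2 was 0.31 above vehicle replicate 3, or 17.1 standard errors. Spots of an array are repeats of the same sample, so these errors cover only the measurement on the array. They leave out labelling, hybridization, the slide, the scaling of the array and the spread between animals.

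Between single arrays of the same group, Hsp90ab1 differed by 0.23 to 0.62 on the log2 scale in 6 pairs, with a median of 0.35, and between groups by 0.02 to 0.83 in 9 pairs, with a median of 0.26. For Ppia the medians were 0.21 within groups and 0.21 between groups. These medians mix pairs of arrays on the same slide with pairs across slides, which made up 4 of the 6 pairs within groups and 4 of the 9 between groups. For Hsp90ab1 the median across slides was 0.46 within groups and 0.49 between groups, and on the same slide 0.25 within groups (2 pairs) and 0.25 between groups (5 pairs). For Ppia it was 0.21 within and 0.21 between groups across slides, and 0.29 within (2 pairs) and 0.05 between groups (5 pairs) on the same slide.

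How steady the genes were as reference genes depended on whether the slide was taken into account and on vehicle replicate 2. The SD between arrays within groups was 0.21 for Ppia and 0.30 for Hsp90ab1 on the log2 scale, while the median over the 30197 tested probes with a value on all arrays was 0.36 and that of the brightest 5% of them, 1510 probes, was 0.28. Of these bright probes 29.4% varied less than Ppia and 57.8% less than Hsp90ab1. With slide in the model beside group the order of the pair turned, with an SD of 0.24 for Ppia and 0.15 for Hsp90ab1, beside medians of 0.23 over all these probes and 0.18 over the bright ones. Ordered by SD among the 14 reference probes that passed the filter on dim probes, Ppia was the sixth and Hsp90ab1 the eleventh steadiest with group alone in the model, and Hsp90ab1 was the sixth and Ppia the tenth with slide added.

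Without vehicle replicate 2 the SD of Ppia was 0.13 and that of Hsp90ab1 0.29 with group alone, and 0.03 and 0.15 with slide added, so the order with slide rested on that array. These SDs rest on few arrays for the terms in the model, fewest with slide added and 5 arrays, so an SD as small as 0.03 is imprecise. The difference in spread between the genes was not tested, and neither can be called the steadier from these arrays. The whole range over the 6 arrays was 0.83 for Hsp90ab1 and 0.55 for Ppia. Vehicle replicate 2 made up a large part of the range of Ppia, which was 0.24 over the other 5 arrays, and the range of Hsp90ab1 without it was 0.62.

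**Figure D3:**
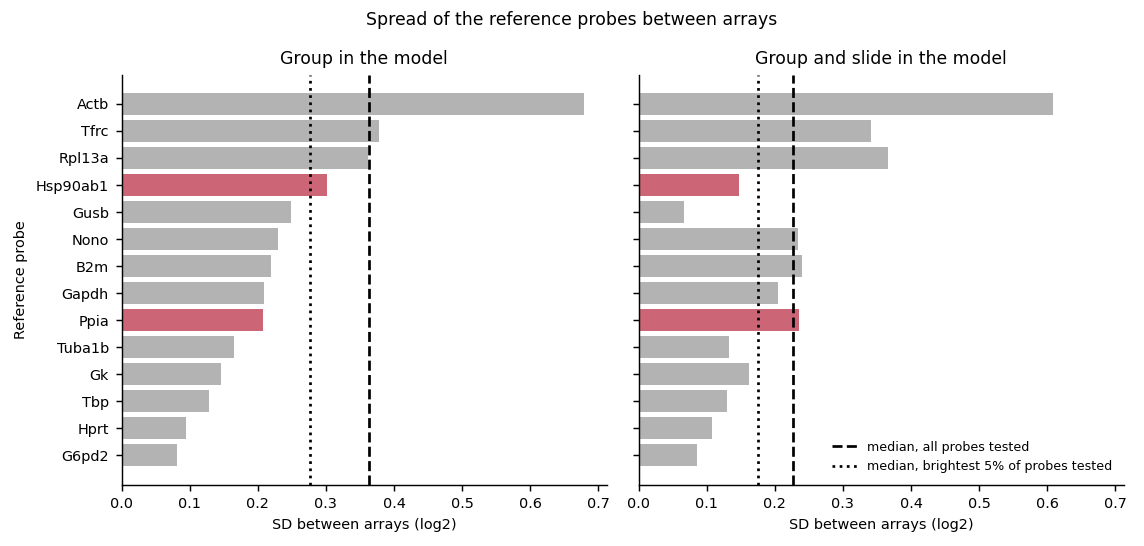
The SD between arrays of the log2 signal (x axis, 6 arrays) for the 14 reference probes that passed the filter on dim probes (y axis), with group in the model on the left and group and slide on the right, and Hsp90ab1 and Ppia in red. Lines mark the median over all tested probes and over the brightest 5% of them. Ppia (0.21) lay below Hsp90ab1 (0.30) with group alone, and above it with slide added (0.24 against 0.15).

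Of the 13 other reference probes, 12 were tested, 4 of them with a higher and 8 with a lower mean in nicotine offspring. Their log2 differences, nicotine minus vehicle, had a median of -0.05, beside -0.02 over all probes tested, and 0 of the 12 passed a limma p under 0.05, adjusted or not, where 3.39% of all probes tested had an unadjusted p under 0.05, so that few or none of 12 probes would be past it at that share. The difference of 0.24 of Hsp90ab1 was above the highest of these 12, which was 0.19 for Gusb, the lysosomal β-glucuronidase. The lowest of the 12 was -0.56 for Actb, which was larger in size than the difference of Hsp90ab1. The difference of -0.17 of Ppia was close to that of Gapdh, the glycolytic dehydrogenase, and of Tuba1b, an α-tubulin, at -0.17 and -0.18. Set against the mean of the other reference probes of the same array in place of the 75th percentile, Hsp90ab1 was 0.30 higher and Ppia was at -0.11 (exact two-sided permutation test, p = 0.4 and 0.3).

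The distance between the profiles of the pair over the arrays depended on vehicle replicate 2. To compare profiles, each probe was centred on its own mean over the arrays, and the distance between profiles was the root mean square of their differences in log2 signal. Over the 6 arrays Hsp90ab1 and Ppia were 0.37 apart, about the median distance of all tested probes from Hsp90ab1 (0.37) and from Ppia (0.38). Without vehicle replicate 2 they were 0.17 apart, nearer than the medians of 0.29 from Hsp90ab1 and 0.25 from Ppia over the same 5 arrays. Of the tested probes, 18.6% were still nearer to Hsp90ab1 than Ppia was, and 26.8% nearer to Ppia than Hsp90ab1 was. Leaving that array out moved Ppia from the tenth to the fifth nearest reference probe of Hsp90ab1, while Hsp90ab1 stayed at place 11 for Ppia. The reference probes nearest to Hsp90ab1 were Gusb at 0.08, the TATA-binding protein gene Tbp at 0.18 and the transferrin receptor gene Tfrc at 0.24, and 0.440% of all tested probes were nearer than Gusb. Those nearest to Ppia were Gapdh at 0.06, Tuba1b at 0.11 and Nono, which encodes an RNA-binding nuclear protein, at 0.12, with 0.258% of all tested probes nearer than Gapdh. Without vehicle replicate 2 Gapdh and Tuba1b were again the nearest to Ppia, at 0.06 and 0.07, while the order for Hsp90ab1 became Nono at 0.06, Gusb at 0.08 and the ribosomal protein gene Rpl13a at 0.10.

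**Figure D4:**
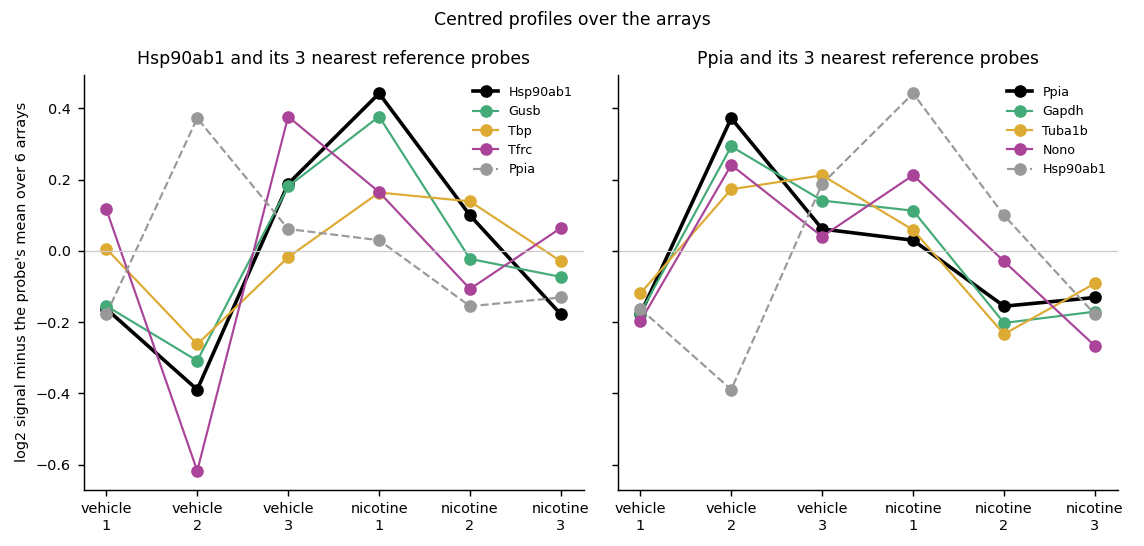
The log2 signal of each probe minus its own mean over the 6 arrays (y axis) on each array (x axis), for Hsp90ab1 and Ppia with their 3 nearest reference probes and, dashed, the other gene of the pair. Lines join the arrays to guide the eye only. In vehicle replicate 2 Hsp90ab1 lay below its mean together with Gusb, Tbp and Tfrc, and Ppia lay above its mean together with Gapdh, Tuba1b and Nono.

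Hsp90aa1, the inducible counterpart of Hsp90ab1, is close to it in sequence, and Ppia has processed copies in the mouse genome. The sequences of the array's probes were not used here, so binding of such transcripts to either probe was not tested, and the values stand for what the probes bound.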

How the data were processed

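The authors scanned 6 1-colour arrays and deposited, per the file headers, the intensity of every spot from Agilent Feature Extraction 11.0.1.1, background-subtracted within the array and not normalized between arrays. The authors also deposited processed log2 values, made with GeneSpring GX by steps not given in the sources used here. For 30174 tested probes these differed from quantile-normalized log2 signals by a median of 0.000508, with medians of 5.27 to 5.28 per array.

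Here log2(gProcessedSignal) minus the 75th percentile of the array over non-control spots was taken, 21 to 46 outlier spots per array and 15 negative control probes were left out, and spots were averaged. Probes with over 50% of their spots well above background on every array of a group were tested (30233). Groups were compared with limma 3.58.1 in R 4.3.3, whose script was tested on simulated data, and single values with an exact permutation test. Thresholds were p under 0.05 and a fold change of 1.5.

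Accessions of the 15 reference probes, matched without version, were named through the RefSeq table of GRCm38.p6; the file headers name mm9, so no coordinates are given. The genes named were the members and, for each, the 3 reference probes with the nearest profile, beside those of the panel's extremes or like values, chosen after their values were seen. Members and lists were chosen with earlier results of these data known. Replicate numbers, from the labels, were not taken to pair the arrays, except in the replicate block. The number of arrays limits the precision. The alternatives of the closing section cover scaling, background, filter, spots, slide, replicate number, weights and single arrays. The spots of each part of the array were set apart after seeing the data, and so were slide as a term in the spread and leaving vehicle replicate 2 out of the spread and the profiles.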

Additional observations from a re-analysis of the deposited data

How the results depend on the processing

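Hsp90ab1 was higher in nicotine offspring in all 23 settings (0.08 to 0.40 on the log2 scale; adjusted p 0.583 to 0.99999 where limma or the methods' t-test was fitted across probes) and Ppia lower in all 23 (-0.30 to -0.03; adjusted p 0.722 to 0.99999), and the within-array difference, Hsp90ab1 minus Ppia, was higher in nicotine offspring in all 20 settings run for it (0.14 to 0.58). With single arrays left out the ranges were 0.08 to 0.40, -0.30 to -0.03 and 0.14 to 0.58. Not every setting could move the estimates, so the counts of settings overstate how far the directions were tested. Changing the filter, the kind of t-test or the block kept 0.24 and -0.17, since these change the estimated error and not the group means. The within-array difference stayed at 0.41 with either block, without normalization and with centring on the other reference probes, where it could not change. The SD between arrays, Hsp90ab1 minus Ppia, was 0.0934 and became -0.0889 with slide as a block, 0.164 without vehicle replicate 2 and 0.120 with both, settings chosen after seeing the data. Normexp was run on gMedianSignal. Deviations from the group means correlated at -0.64, 0.45 and -0.69 for replicate numbers 1, 2 and 3. The arrays of numbers 1 and 3 lay on different slides and those of number 2 on the same slide. These correlations therefore cannot show whether the numbers pair the animals. With the replicate block the difference was 0.24 for Hsp90ab1 and -0.17 for Ppia, 531 probes passed both thresholds and 7 the adjusted one.

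The background counts moved more, and the cause was not tested. The 919 probes past both thresholds became 154 without normalization between arrays, 459 with normexp, 610 with the methods' t-test, 1484 with slide as a block, 1428 on slide 1 alone, 1615 with array weights and 277 with a fold of 2, and 431 to 2040 with single arrays left out. The 8 probes at an adjusted p under 0.05 became 14 with quantile normalization, 13 without normalization, 4 with normexp, 0 with the methods' t-test (1309 at an unadjusted p under 0.05), 19 with slide as a block, 16 on slide 1 alone, 45 with array weights, 14 on the authors' processed values, 0 in limma where a probe had to be well above background on each of the 6 arrays (813 unadjusted) and 5 to 17 with single arrays left out. Neither Hsp90ab1 nor Ppia passed the threshold in any of these.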
